A study of Mus musculus with 4 samples.

Results

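MHC class I antigen presentation and T cell tolerance in primary liver sinusoidal endothelial cells (LSECs) were described through 10 genes, taken by symbol from the 18373 genes of the table. The rule used no measured value, but the genes were proposed with earlier results of these data known. All 10 passed the filter on low counts that left 13628 genes for testing. They were the class I heavy chains *H2-K1* and *H2-D1*, the light chain *B2m*, the peptide transporter subunits *Tap1* and *Tap2*, the loading factor *Tapbp*, the peptidase *Erap1*, the regulator *Nlrc5*, the lipid-presenting chain *Cd1d1* and the T cell inhibitory ligand *Cd274*. LSECs had been isolated from the livers of 8-week-old Balb/c mice by collagenase perfusion and CD146 beads. They were cultured for 24 h and transfected for 48 h, with a negative control siRNA (NC, n = 2 libraries) or an siRNA against the long noncoding RNA *Airn* (siAirn, n = 2 libraries), with no other agent in either group. The methods speak of separate siRNAs against *Airn* whereas the labels name siAirn1 for both libraries. The RNA was read on a BGISEQ-500 as single-end reads of 50 bases.

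MHC class I molecules show peptides from inside the cell to CD8+ T cells. Proteasomes cut the peptides, the TAP1 and TAP2 pump carries them into the endoplasmic reticulum, tapasin (*Tapbp*) holds an empty heavy chain paired with beta-2 microglobulin (*B2m*) at the pump until a peptide binds, and ERAP1 trims peptides to fit. NLRC5 is the transactivator of class I genes. LSECs are known to take up antigen from the blood and present it to CD8+ T cells, often with tolerance as the outcome, in which PD-L1 (*Cd274*) takes part, while CD1d presents lipids to natural killer T cells.

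The libraries held between 17308382 and 18371959 estimated counts each. The siRNA target *Airn* had 7 and 3 counts in the NC libraries and 11 and 9 counts in the libraries labelled siAirn. It was too low to be tested and was not lower in the siAirn libraries. These counts do not show a knockdown, the reason was not tested, and directions below are those of the library labels. The defining LSEC markers were present, with *Stab2* (a scavenger receptor) at 475 and 429 CPM (a count rate scaled to library size with TMM normalization) in NC and 410 and 350.3 CPM in siAirn. Of 12 LSEC markers, 10 were lower in siAirn at an edgeR adjusted p under 0.05 (8.56% of all genes were), and *Stab2* was not among these. The labels call the libraries biological replicates without naming separate mice, so the p-values measure the spread between these 4 libraries. A permutation test of 2 against 2 libraries cannot go below an exact p of 0.333, and the tests below are edgeR's quasi-likelihood test fitted over all genes, with Benjamini-Hochberg adjusted p-values. A gene was called where its adjusted p was under 0.05.

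The stretches upstream of *H2-K1* and *B2m* are shown because these genes encode the chains of one complex and both were lower in siAirn. They are the 250 bases before the annotated start, from RefSeq on GRCm38.p6, at chr17:34000348-34000597 on the minus strand and chr2:122147437-122147686 on the plus strand, written 5′ to 3′. Capitals mark matches on either strand to 4 patterns that were chosen with these sequences in view: GGGA, then 4 bases of any kind, then CC (kappa B-like), AANNGAAA (interferon response-like), TGACG (a half-site of the cyclic AMP response element) and CCAAT (the CCAAT box).
H2-K1: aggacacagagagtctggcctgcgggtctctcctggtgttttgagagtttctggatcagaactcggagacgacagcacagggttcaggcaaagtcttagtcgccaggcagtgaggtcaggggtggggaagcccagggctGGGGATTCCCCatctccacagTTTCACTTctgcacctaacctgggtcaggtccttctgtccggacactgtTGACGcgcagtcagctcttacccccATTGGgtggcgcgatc
B2m: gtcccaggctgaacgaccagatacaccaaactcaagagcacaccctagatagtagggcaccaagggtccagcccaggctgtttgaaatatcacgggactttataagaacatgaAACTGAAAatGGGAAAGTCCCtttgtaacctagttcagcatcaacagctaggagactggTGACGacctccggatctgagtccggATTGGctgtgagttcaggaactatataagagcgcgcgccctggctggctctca
In *H2-K1* the kappa B-like pattern matched once on each strand, offset by 1 base, with overlapping matches from 111 to 101 bases before the start, followed by the interferon response-like match from 90 to 83, TGACG from 41 to 37 and CCAAT on the opposite strand from 16 to 12 bases before it. *H2-D1* held the same 4 patterns in the same order, and the first bases of neighbouring matches lay 21, 49 and 25 bases apart in both genes. In *B2m* the interferon response-like match, from 137 to 130 bases before the start, came ahead of the kappa B-like matches, which overlap each other from 127 to 117. TGACG at 78 to 74 and CCAAT at 53 to 49 bases followed. All 4 patterns together occurred in 0.198% of 32851 RefSeq promoter windows of the same length, and singly the kappa B-like pattern occurred in 17.6%, AANNGAAA in 21.3%, TGACG in 17.8% and CCAAT in 33.9%.

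Of the other members with a promoter entry, *Tap1* held TGACG and CCAAT, *Tapbp* held 2 matches to CCAAT, *Cd274* held 1 match to AANNGAAA and *Erap1* held no match. The promoter entries covered 7 of the 10 members. The windows of *H2-D1*, *Tapbp*, *Tap1*, *Erap1* and *Cd274* hold from 103 to 250 bases annotated as untranslated region and are not printed, whereas the printed window of *B2m* holds 1 such base and that of *H2-K1* none. A second *H2-K1* entry, with its start 14 bases further downstream, is not printed and holds 1 more match to CCAAT. These matches describe letters in a window and say nothing of binding.

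Transcripts of the class I heavy and light chains were among the abundant RNAs of these cells. On the per-length FPKM scale (reads scaled to transcript length and library size), *B2m* measured 3695 and 3978 in NC and 3225 and 3121 in siAirn. It was the third most abundant gene in 3 libraries and the fourth in siAirn replicate 2. *H2-K1* measured 1136 and 1272 FPKM in NC and 793 and 892 FPKM in siAirn, and *H2-D1* measured 526 and 567 FPKM in NC and 339 and 434 FPKM in siAirn. The members that load, trim or regulate were far lower. *Tapbp* measured 127 and 124 FPKM in NC and 79.5 and 82.9 FPKM in siAirn, whereas *Erap1* lay between 22.4 and 27.2 FPKM, *Tap1* between 14.9 and 20.3 FPKM and *Cd274* between 10.4 and 12.2 FPKM over the 4 libraries. *Cd1d1* (3.44 to 4.47 FPKM), *Tap2* (3.17 to 3.49 FPKM) and *Nlrc5* (1.80 to 2.31 FPKM) were the lowest. All 4 libraries gave this same order of the 10 genes, and each of the 9 pairs of neighbours was separated in both groups, without overlap between libraries. In the NC mean, *B2m* exceeded *Nlrc5* by 1918-fold.

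**Figure D1:**
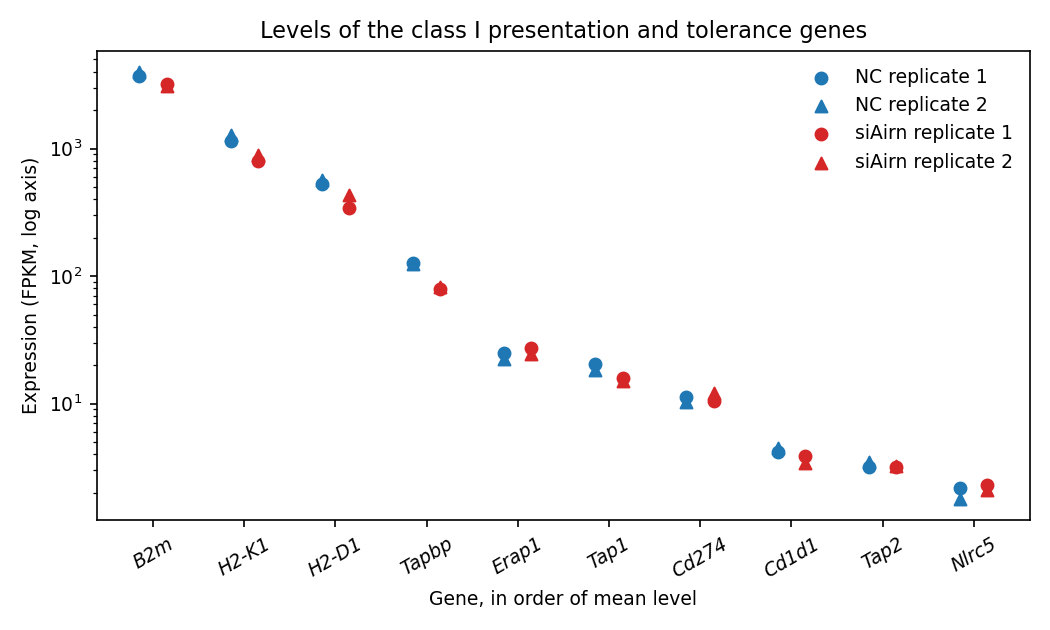
Levels of the 10 members in FPKM on a log axis, 1 point for each of the 4 libraries. B2m was the highest in every library and Nlrc5 the lowest, and the order of the genes was the same in all 4.

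Of the 10 members, 5 were called, all of them lower in siAirn: *H2-K1*, *H2-D1*, *B2m*, *Tap1* and *Tapbp*. Over all genes tested, 16.8% were called in either direction, 8.56% were called lower and 8.27% higher. The members' median log2 fold change was -0.30, against a median of 0.00 over all genes tested. In 7 members both siAirn libraries lay below both NC libraries in CPM, an arrangement found for 31.9% of all genes. For *Tap2*, which is among them, the groups overlapped in FPKM. Under the fold change over 1.4 with an unadjusted p under 0.05 that the methods used as a threshold, 3 members were called (*H2-K1*, *H2-D1* and *Tapbp*), and 4.72% of all genes were called lower under that rule.

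*H2-K1* (chromosome 17, 33996017 to 34000347, minus strand; GENCODE M21 on GRCm38, as for all positions of genes here) encodes a classical class I heavy chain. Its level was 2045 and 2295 CPM in NC and 1376 and 1571 CPM in siAirn. The groups did not overlap, and the mean fell by 32.1%, from 2170 ± 177 to 1474 ± 138 CPM (SD, n = 2 each; edgeR log2 fold change -0.56, SE 0.087, adjusted p = 0.0116).

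*H2-D1* (chromosome 17, 35262730 to 35267499, plus strand) encodes the other classical heavy chain followed here. It measured 869.9 and 942 CPM in NC and 544 and 703 CPM in siAirn. siAirn replicate 1 was the lowest library for both heavy chains, and in *H2-D1* the siAirn libraries stood further apart than the NC libraries did. The mean fell by 31.2%, from 906 ± 51.1 to 623 ± 112 CPM (SD, n = 2 each), with an edgeR log2 fold change of -0.54 (SE 0.118, adjusted p = 0.0264). The log2 fold change of *H2-D1* was -0.37 without siAirn replicate 1 and -0.74 without siAirn replicate 2, and it was called in both cases.

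Class I genes resemble each other. Of the 50-base windows of *H2-K1* transcripts, 9.63% also occur in another gene, most often *H2-Q10*, and of those of *H2-D1* 12.8% do, most often in *H2-Q1*. *H2-K1* and *H2-D1* share 141 windows with each other. Reads from such windows could be divided between genes by the authors' counting. Balb/c mice carry the H-2d haplotype and the C57BL/6 reference the H-2b haplotype, and the effect of this on the counts was not tested.

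*B2m* (chromosome 2, 122147686 to 122153083, plus strand), the light chain shared by all of these molecules, measured 2769 and 2981 CPM in NC and 2319 and 2285 CPM in siAirn. The siAirn libraries lay close together and below both NC libraries. The mean fell by 19.9%, from 2875 ± 150 to 2302 ± 24.1 CPM (SD, n = 2 each; edgeR log2 fold change -0.32, SE 0.061, adjusted p = 0.0190). No 50-base window of *B2m* occurs in another gene. The FPKM ratio of *H2-K1* to *B2m* was 0.307 and 0.320 in NC and 0.246 and 0.286 in siAirn, lower in both siAirn libraries. That of *H2-D1* to *B2m* was 0.142 and 0.143 in NC and 0.105 and 0.139 in siAirn. The ratio of *H2-K1* to *H2-D1*, at 2.16 and 2.24 in NC and 2.34 and 2.06 in siAirn, overlapped between groups. The 3 chains together took up 0.563% and 0.612% of all counts in NC and 0.431% and 0.459% in siAirn.

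*Tapbp* (chromosome 17, 33915899 to 33929292, plus strand) encodes tapasin. It measured 338 and 331 CPM in NC and 205 and 216 CPM in siAirn, 2 tight and separate pairs. The mean fell by 37.0%, from 334 ± 5.44 to 211 ± 7.90 CPM (SD, n = 2 each; edgeR log2 fold change -0.67, SE 0.062, adjusted p = 0.00496). Exons of *Gm19412* and *Zbtb22* lie over parts of *Tapbp*, covering 24.9% of its exonic bases on the opposite strand and 4.11% on the same strand. The use of strand in counting is not given in the sources used here, so reads from these overlaps cannot be assigned.

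The transporter subunits differed in level and in what the test found. *Tap1* (chromosome 17, 34187553 to 34197225, plus strand) measured 58.1 and 53.2 CPM in NC and 43.7 and 41.9 CPM in siAirn, with no overlap. Its mean fell by 23.03%, from 55.7 ± 3.46 to 42.8 ± 1.28 CPM (SD, n = 2 each; edgeR log2 fold change -0.38, SE 0.078, adjusted p = 0.0229). *Tap2* (chromosome 17, 34203527 to 34216321, plus strand) measured 7.59 and 8.41 CPM in NC and 7.42 and 7.58 CPM in siAirn. In CPM both siAirn libraries were the lower ones, but siAirn replicate 2 nearly met NC replicate 1. In FPKM the groups overlapped, at 3.17 and 3.49 in NC and 3.19 and 3.22 in siAirn. *Tap2* was not called (log2 fold change -0.09, 95% interval -0.44 to 0.25, edgeR adjusted p = 0.687). This interval holds the fold change of *Tap1*, and a difference between the subunits in their change was not tested. The FPKM ratio of *Tap1* to *Tap2* was 6.40 and 5.30 in NC and 4.94 and 4.64 in siAirn. Exons on the opposite strand cover 18.5% of *Tap2* and 3.87% of *Tap1*.

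*Erap1* (chromosome 13, 74639568 to 74693201, plus strand), the trimming peptidase, measured 107 and 98.4 CPM in NC and 112 and 102 CPM in siAirn, so that the groups overlapped. Its log2 fold change was 0.06 (95% interval -0.12 to 0.24, edgeR adjusted p = 0.636). *Nlrc5* (chromosome 8, 94434356 to 94527272, plus strand) measured 15.5 and 12.9 CPM in NC and 16.2 and 15.2 CPM in siAirn, again overlapping, with a log2 fold change of 0.14 (95% interval -0.16 to 0.44, edgeR adjusted p = 0.462). Both intervals lie above the fold change fitted for *H2-K1*, and a difference from *H2-K1* in their change was not tested. *Nlrc5* had 234 to 293 counts per library, and its interval reached no lower than -0.16.

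*Cd1d1* (chromosome 3, 86995834 to 86999441, minus strand) measured 7.42 and 7.85 CPM in NC and 6.64 and 6.00 CPM in siAirn. The siAirn libraries were the lower ones, but with 106 to 142 counts per library the interval was wide, from -0.64 to 0.09 around a log2 fold change of -0.27, and the gene was not called (edgeR adjusted p = 0.258). Of its 50-base windows, 19.1% occur in *Cd1d2*, which was not analysed here. *Cd274* (chromosome 19, 29367455 to 29388095, plus strand), encoding PD-L1, measured 39.8 and 37.2 CPM in NC and 36.3 and 42.7 CPM in siAirn. The siAirn libraries fell on either side of the NC libraries, and the log2 fold change was 0.04 (95% interval -0.20 to 0.27, edgeR adjusted p = 0.834).

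**Figure D2:**
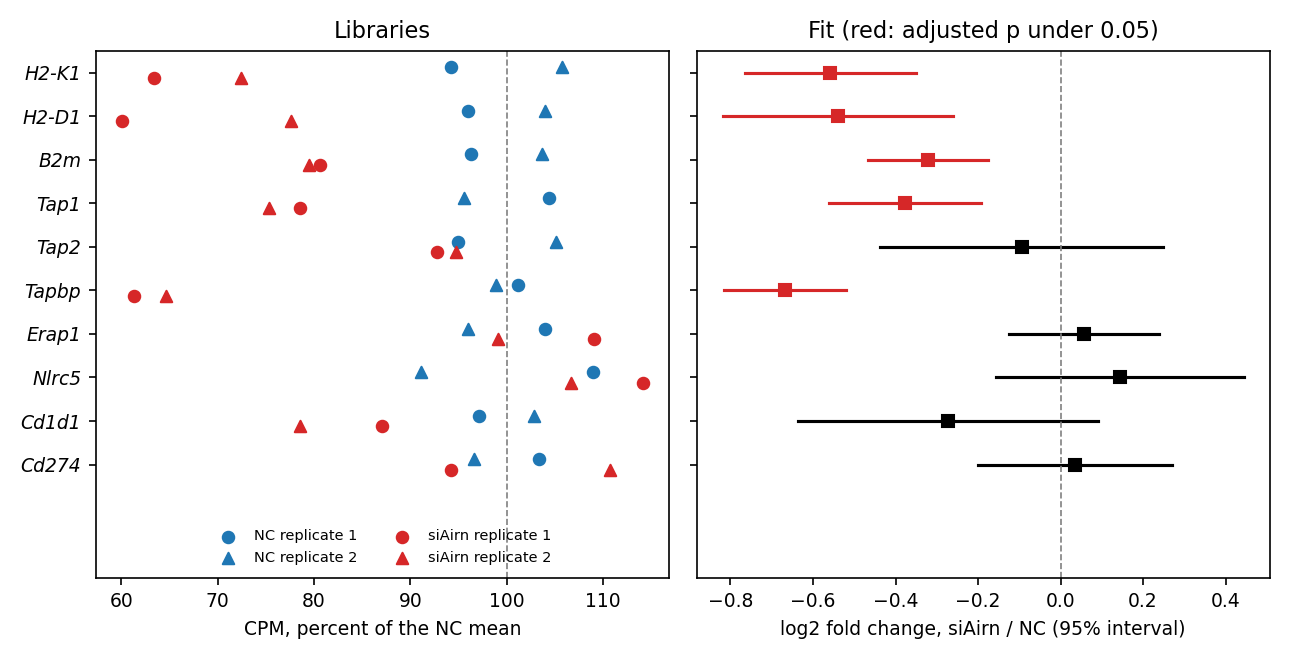
Left, CPM of each member in the 4 libraries as percent of its NC mean, with circles for replicate 1 and triangles for replicate 2. Right, log2 fold change of siAirn against NC with its 95% interval, red where the edgeR adjusted p was under 0.05; the 5 members called all lay to the left of 0, with Tapbp at -0.67.

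The 5 calls rested on having both NC libraries. Without NC replicate 1 the adjusted p-values of *H2-K1*, *H2-D1*, *B2m*, *Tap1* and *Tapbp* were 0.0717, 0.111, 0.0775, 0.129 and 0.0652, and without NC replicate 2 they were 0.115, 0.176, 0.13, 0.114 and 0.0869 (edgeR, with the lone NC library assumed to vary like the siAirn libraries). All 5 had an unadjusted p under 0.05 in both fits. Over all genes, these fits called 35 and 0 genes, with 3475 and 3075 genes at an unadjusted p under 0.05, so that the counts of the gene lists below rest on both NC libraries too. The log2 fold changes stayed negative in all 15 alternatives for these 5 genes, from -0.66 to -0.40 for *H2-K1*, -0.74 to -0.37 for *H2-D1*, -0.37 to -0.27 for *B2m*, -0.44 to -0.30 for *Tap1* and -0.71 to -0.54 for *Tapbp*. All 15 draw on the same 4 libraries, in which both siAirn libraries lay below both NC libraries for each of these genes. The sign could therefore hardly change, and the fit limited to genes with known length and GC content repeats the main fold changes. With transcript length and GC content entered as an offset, *H2-D1* and *Tap1* were not called. Their log2 fold changes were then -0.38 (edgeR adjusted p = 0.0789) and -0.30 (edgeR adjusted p = 0.0545).

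**Figure D3:**
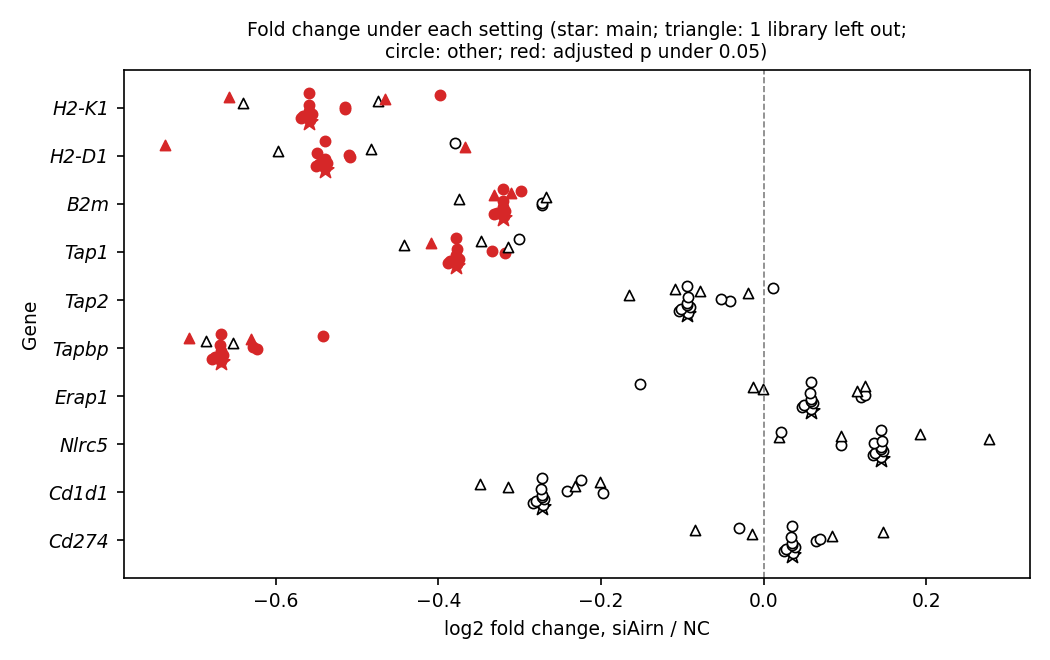
Log2 fold change of each member under the main fit and the alternatives. The values of H2-K1, H2-D1, B2m, Tap1 and Tapbp lay below 0 in all of them, and those of Tap2, Erap1 and Cd274 on both sides of 0. All of these fits draw on the same 4 libraries.

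The other class I chains give a wider view of the family. Of 15 class I chains tested, 6 were called, all lower, with a list median of -0.33 for the log2 fold change, where 8.56% of all genes tested were called lower. Apart from members, 3 of 11 were called: *H2-T23*, *H2-T24* and *H2-M3*. *H2-T23*, encoding the Qa-1 chain that presents leader peptides of other class I molecules to NKG2 receptors, measured 134 and 134 CPM in NC and 86.5 and 85.6 CPM in siAirn (log2 fold change -0.64, edgeR adjusted p = 0.00496). *H2-T24* measured 81.4 and 69.0 CPM in NC and 53.6 and 44.2 CPM in siAirn (log2 fold change -0.62, edgeR adjusted p = 0.0183). *H2-M3*, which presents N-formylated peptides, measured 24.5 and 27.1 CPM in NC and 20.0 and 19.5 CPM in siAirn (log2 fold change -0.39, edgeR adjusted p = 0.0383). *H2-T22* was not called, at 141 and 157 CPM in NC and 105 and 131 CPM in siAirn (log2 fold change -0.34, edgeR adjusted p = 0.0789). Windows shared with other genes made up 13.6% of *H2-T23* and 34.5% of *H2-T22*.

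In the loading machinery, 2 of 10 genes tested were called, both lower (8.56% of all genes were), and both are members (*Tap1* and *Tapbp*). The most abundant of the other 6, the chaperones *Calr* and *Hspa5*, were not called. *Calr* measured 1244 and 1243 CPM in NC and 1040 and 1126 CPM in siAirn (log2 fold change -0.20, edgeR adjusted p = 0.0724). *Hspa5* measured 1227 and 1238 CPM in NC and 1357 and 1482 CPM in siAirn (log2 fold change 0.20, edgeR adjusted p = 0.0732). Of 6 genes for the immunoproteasome and the proteasome activator, 1 was called, lower in siAirn (8.56% of all genes were). *Psmb10*, a catalytic subunit of the immunoproteasome, measured 76.5 and 73.0 CPM in NC and 63.0 and 54.9 CPM in siAirn (log2 fold change -0.34, edgeR adjusted p = 0.0355). *Psmb8* and *Psmb9*, encoding the other catalytic subunits, had few counts. *Psmb8* had 45.5 and 45.3 estimated counts in NC and 57.9 and 10.1 in siAirn, and *Psmb9* had 2.91 to 16.4 per library.

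Of 14 regulators of class I genes 1 was called, lower in siAirn, with a list median of 0.01, beside the 8.56% of all genes tested that were called lower. *Irf8*, an interferon regulatory factor, measured 137 and 135 CPM in NC and 101 and 83.2 CPM in siAirn (log2 fold change -0.56, edgeR adjusted p = 0.0137). *Rela*, a subunit of NF-kappa B, was not called (log2 fold change -0.09, edgeR adjusted p = 0.381). Of 11 genes for interferon receptors and their signalling 1 was called, the kinase *Jak1*, at 629 and 630.5 CPM in NC and 543 and 519.8 CPM in siAirn (log2 fold change -0.25, edgeR adjusted p = 0.0333).

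Of 22 interferon-stimulated genes outside presentation, 7 were called, all lower (8.56% of all genes were), with a list median of -0.21. *Cxcl9*, a T cell chemokine, measured 8.00 and 7.25 CPM in NC and 3.71 and 3.56 CPM in siAirn (log2 fold change -1.07, edgeR adjusted p = 0.0129). *Irf7*, the factor that amplifies type I interferon, measured 1044 and 1021 CPM in NC and 654 and 636 CPM in siAirn (log2 fold change -0.68, edgeR adjusted p = 0.00496). *Ifit3* (log2 fold change -0.74, edgeR adjusted p = 0.0138) shares 51.2% of its windows with other genes, and *Gbp5* had a log2 fold change of -0.42 (edgeR adjusted p = 0.0442). *Oasl2*, the most abundant gene of the list, measured 1226 and 1261 CPM in NC and 1233 and 1430 CPM in siAirn and was not called (log2 fold change 0.10, edgeR adjusted p = 0.426).

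Among coinhibitory and tolerance genes, 4 of 11 tested were called, all lower (8.56% of all genes were), and *Cd274* was not one of them. *Clec4g* (LSECtin), a lectin of LSECs that restrains T cells, measured 44.1 and 42.4 CPM in NC and 19.8 and 14.7 CPM in siAirn (log2 fold change -1.33, edgeR adjusted p = 0.00508). *Cmtm6*, which stabilises PD-L1 protein, measured 109 and 119.7 CPM in NC and 85.4 and 83.8 CPM in siAirn (log2 fold change -0.43, edgeR adjusted p = 0.0132). *Lgals9*, encoding the TIM-3 ligand galectin-9, measured 721 and 683 CPM in NC and 556 and 554 CPM in siAirn (log2 fold change -0.34, edgeR adjusted p = 0.0154). *Tgfb1* measured 229.8 and 231 CPM in NC and 189 and 196 CPM in siAirn (log2 fold change -0.26, edgeR adjusted p = 0.0307).

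Genes of cross-presentation and of lipid loading onto CD1d went both ways, with 1 of 8 called higher and 3 called lower, beside 8.27% and 8.56% of all genes. *Lnpep*, an endosomal peptidase that trims cross-presented peptides, measured 69.6 and 67.1 CPM in NC and 102 and 106 CPM in siAirn (log2 fold change 0.61, edgeR adjusted p = 0.00533). *Psap*, whose saposins load lipids onto CD1d, measured 1099 and 1200 CPM in NC and 748 and 764 CPM in siAirn (log2 fold change -0.61, edgeR adjusted p = 0.00574). *Mrc1*, an uptake receptor for antigen, had a log2 fold change of -0.40 (edgeR adjusted p = 0.0148), and *Rab43* one of -0.31 (edgeR adjusted p = 0.0244), although 74.5% of its windows occur in another gene.

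**Figure D4:**
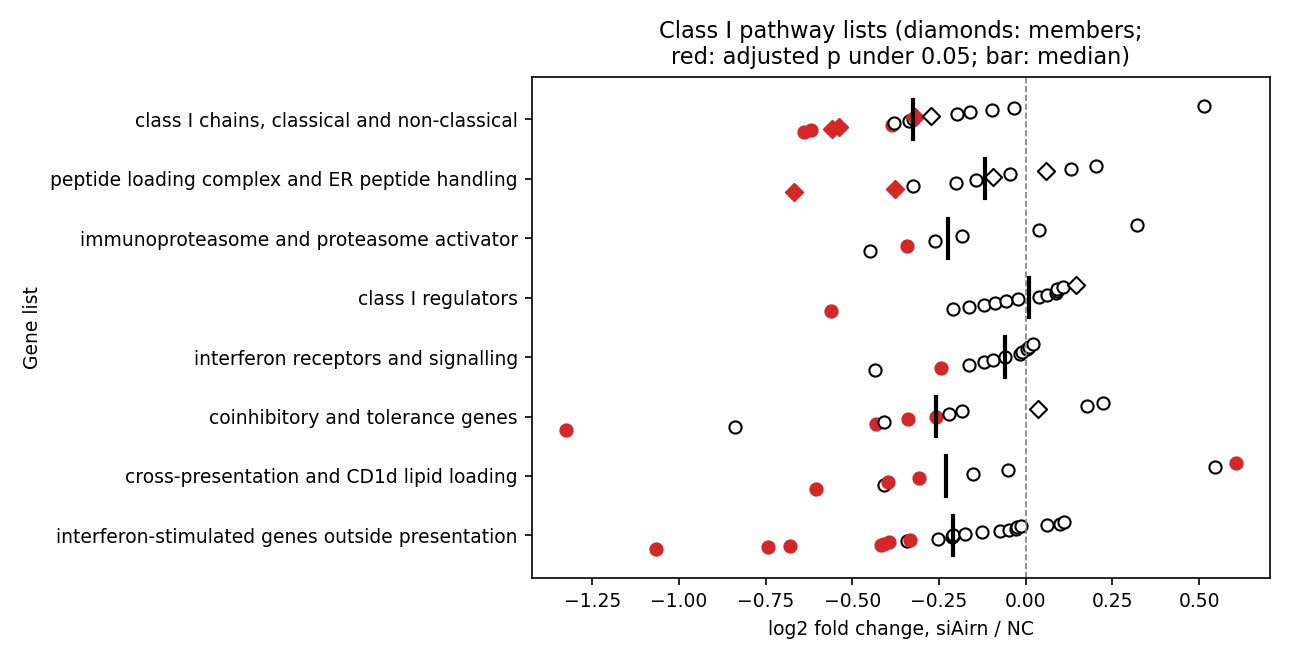
Log2 fold change of siAirn against NC for the genes tested in each presentation or tolerance list. The medians lay at -0.33 for class I chains, -0.21 for interferon-stimulated genes and 0.01 for class I regulators.

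Cell types other than LSECs that liver cultures can hold also express class I genes, and markers of cell types moved with the groups. Fewer cells of a type and less RNA per cell cannot be told apart in bulk RNA. Over all genes, 8.56% were called lower and 8.27% higher. Of 12 LSEC markers 10 were called lower, with summed levels of 8579 and 8077 CPM in NC and 6239 and 5410 CPM in siAirn. Of 12 Kupffer cell and macrophage markers tested (14 listed) 7 were called lower, and the list summed to 247 and 315 CPM in NC and 190 and 160 CPM in siAirn. The Kupffer cell markers *Clec4f*, with 83 and 76 counts in NC and 35 and 25 in siAirn, and *Cd5l*, with 285 and 629 counts in NC and 172 and 221 in siAirn, were present and called lower (edgeR adjusted p = 0.0176 and 0.0471). *Timd4* and *Cd163* were at most at 4 counts in any library. Of 9 stellate cell markers 4 were called higher, summing to 1035 and 1223 CPM in NC and 1270 and 1647 CPM in siAirn. Of 8 hepatocyte markers tested (9 listed) 2 were called higher, summing to 547 and 700.2 CPM in NC and 783 and 1009 CPM in siAirn. The dendritic and B cell markers summed to 38.9 and 35.3 CPM in NC and 45.7 and 38.9 CPM in siAirn, mostly from *Zbtb46*, which endothelial cells also express, and the T and NK cell markers to 2.92 and 2.71 CPM in NC and 4.21 and 4.02 CPM in siAirn. The part of these cell types in the lower class I levels was not tested.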

How the data were processed

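The data were 4 RNA-seq libraries of primary LSECs, grouped by their labels into NC (n = 2) and siAirn (n = 2). The authors deposited estimated counts per gene, not normalized and not all whole. A second value, whose unit is not named, was read as FPKM computed by the authors. Group means in the table were not used. The submitters' processing notes name BWA, Bowtie2, RSEM and the human build hg19 without roles. The use of strand is not given in the sources used here.

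Rounded counts entered edgeR 4.0.16 under R 4.3.3 (TMM factors 0.985 to 1.02, filterByExpr, quasi-likelihood test, groups only), with Benjamini-Hochberg adjustment over all 13628 genes tested. The common biological coefficient of variation was 0.0754. CPM uses TMM-scaled library sizes, and SDs are over 2 libraries. Alternatives used DESeq2 1.42.0, limma 3.58.1 on log2(FPKM + 1) and log2(FPKM + 0.1), other filters and scalings, a replicate block, an offset for length and GC content, and left out each library. The fits were also run on simulated counts with known fold changes and the same spread for every gene. No result here rests on that run. Shared 50-base windows and exon overlaps were computed from GENCODE M21, which may not be the authors' annotation.

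The members and gene lists were chosen with earlier results of these data known. The rule for named genes took all members, *Airn* and, from each list, up to 4 called genes with the largest fold changes and up to 2 with the highest mean CPM. *H2-L*, *Cd1d2*, *Vtcn1* and *Trac* were not analysed here. Genes such as *Stab2*, *Timd4*, *Cd163*, *Clec4f*, *Cd5l*, *Zbtb46*, *Psmb8* and *Psmb9* were named after their values were seen.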

Additional observations from a re-analysis of the deposited data

How the results depend on the processing

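Over all genes tested, 2294 were called in the main analysis, 1358 at a fold change over 1.4 with an unadjusted p under 0.05, 1042 with the offset for length and GC content (2200 without the offset on the same 12948 genes, a comparison added after seeing the data) and 4841 with the replicate block, while leaving out 1 library gave 0 to 2332 genes. Without siAirn replicate 2, 1384 genes were called, and *Tap1* was not among them (edgeR adjusted p = 0.0591). The labels do not say whether the replicate numbers pair the libraries, and the main analysis did not take them so. Deviations from the group means of NC replicate 1 and siAirn replicate 1 correlated at r = 0.233 across genes. With only 2 possible pairs, this does not settle whether the libraries were paired. The block called the same 5 members. Members called numbered 5 in the main analysis, 3 with the offset (*H2-K1*, *B2m* and *Tapbp*), 3 under the fold threshold, 4 with limma at either pseudocount (*B2m* adjusted p = 0.0726 and 0.0682) and 0 to 5 when 1 library was left out. All 5 kept an unadjusted p under 0.05 in the fits that called 0. The members' median log2 fold change was -0.30 in the main analysis, -0.24 and -0.26 with limma at pseudocounts of 1 and 0.1, -0.26 with the offset and -0.34 to -0.25 with 1 library left out. Values near 0 changed sign: with the offset, *Erap1* was at -0.15, *Cd274* at -0.031 and *Tap2* at 0.011. Leaving out 1 library, *Erap1* lay between -0.013 (without siAirn replicate 1) and 0.12 and was at -0.0009 without NC replicate 2, and *Cd274* lay between -0.085 (without siAirn replicate 2) and 0.15 and was at -0.014 without NC replicate 2. The cause was not tested. With 2 libraries per group, *Tap2*, *Nlrc5* and *Cd1d1*, the least counted members, had the widest intervals.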
